A study of Homo sapiens with 8 samples.

Results

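The 10 osteoblast lineage genes followed here through ATAC-seq peak lists of U2OS, an established human osteosarcoma cell line, are RUNX2, SP7, BMP2, BMP4, ALPL, CDH2, CDH11, SPP1, IBSP and BGLAP. They are 10 of 19974 protein-coding genes that RefSeq places on chromosomes 1 to 22 and X. They were taken as a set by name, for their role in osteoblasts, with earlier results of these data known. Each gene was read with 20 kb on each side of its RefSeq span (GRCh38), and all 10 had peaks in that window. ATAC-seq marks accessible DNA by the cuts of a transposase. The 4 conditions, each with 2 libraries from 2 batches, were control siRNA (siGl3) untreated, siRNA against Orc6 (siOrc6) untreated, siGl3 with 5 mM H2O2 for 30 min, and siOrc6 with the same H2O2 treatment. Orc6 is a subunit of the origin recognition complex. Per the labels, 72 h of siRNA preceded a thymidine block and 3 h of release in every condition, so none of the groups is an unsynchronised culture. All libraries come from 1 line, and the extent of the knockdown was not measured in the files used here.

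RUNX2 is the transcription factor that commits mesenchymal cells to the osteoblast fate, and SP7 (osterix) acts below it. BMP2 and BMP4 are secreted ligands that induce this programme. ALPL, the tissue-nonspecific alkaline phosphatase, frees phosphate for mineral. CDH2 (N-cadherin) and CDH11 (OB-cadherin) join osteoblasts to each other. SPP1 (osteopontin), IBSP (bone sialoprotein) and BGLAP (osteocalcin) are proteins of the mineralised matrix, and RUNX factors are known to bind the promoters of several of these genes. RUNX2 is itself transcribed from a distal promoter, used mainly in bone, and from a proximal promoter used more widely.

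Each condition had 1 deposited peak list with both library numbers in its name, so there is no spread between libraries and no test of a difference, and the read depth is unknown. The lists held between 97816 and 115292 peaks on these chromosomes. A peak's strength is given below as its signal percentile, the share of peaks in its own list whose signal (the authors' value) is at or below its own. Percentiles describe peaks within a list, and a difference between lists does not show a change. Signal rose with peak width (Spearman's rho of 0.84 to 0.88 across the peaks of a list), so wide peaks rank high. Joining overlapping or touching peaks of the 4 lists gave 129052 merged regions, 81 of them in the 10 windows. For the effect of Orc6 the authors deposited 4 further lists, of regions higher or lower after its knockdown, without and with H2O2, which carry no fold or p-value.

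RefSeq promoter sequences were found for 7 of the 10 genes, with 13 start sites in all. SP7, BMP2 and CDH11 had none and were read at both annotated gene ends. The 7 promoters on which the comparison of accessible and inaccessible starts turns are printed here from 250 bases before the start to 30 bases from it (RefSeq, GRCh38.p14, 5′ to 3′ on the gene's strand). Capitals mark the RUNX core, TGTGGT or TGCGGT on either strand. Such a match describes the letters and is not a binding site. Starts are numbered from the 5′ side of the gene.
RUNX2 start 1, chr6:45328080-45328359, plus strand: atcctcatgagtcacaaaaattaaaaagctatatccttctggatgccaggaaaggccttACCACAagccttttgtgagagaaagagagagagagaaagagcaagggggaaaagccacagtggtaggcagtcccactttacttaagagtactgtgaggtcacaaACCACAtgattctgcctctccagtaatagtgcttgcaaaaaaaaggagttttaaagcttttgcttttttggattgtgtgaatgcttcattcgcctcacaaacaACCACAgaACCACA
RUNX2 start 2, chr6:45422025-45422304, plus strand: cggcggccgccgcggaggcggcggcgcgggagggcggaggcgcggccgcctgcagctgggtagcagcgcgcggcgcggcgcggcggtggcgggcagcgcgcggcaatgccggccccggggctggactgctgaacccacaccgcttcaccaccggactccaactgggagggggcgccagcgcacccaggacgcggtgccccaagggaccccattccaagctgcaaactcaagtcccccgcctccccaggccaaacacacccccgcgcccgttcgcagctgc
ALPL start 2, chr1:21509173-21509452, plus strand: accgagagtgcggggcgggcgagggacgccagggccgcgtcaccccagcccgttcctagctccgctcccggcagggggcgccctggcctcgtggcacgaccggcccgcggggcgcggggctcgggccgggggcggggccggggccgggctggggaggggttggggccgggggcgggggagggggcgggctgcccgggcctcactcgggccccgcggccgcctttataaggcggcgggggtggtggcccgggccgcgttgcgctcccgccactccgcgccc
CDH2 start 1, chr18:28177101-28177380, minus strand: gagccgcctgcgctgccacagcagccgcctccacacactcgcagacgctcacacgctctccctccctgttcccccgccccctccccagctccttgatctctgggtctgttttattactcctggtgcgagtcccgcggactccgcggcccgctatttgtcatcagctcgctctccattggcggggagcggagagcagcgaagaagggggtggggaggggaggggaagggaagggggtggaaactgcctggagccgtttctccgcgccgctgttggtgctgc
SPP1 start, chr4:87975464-87975743, plus strand: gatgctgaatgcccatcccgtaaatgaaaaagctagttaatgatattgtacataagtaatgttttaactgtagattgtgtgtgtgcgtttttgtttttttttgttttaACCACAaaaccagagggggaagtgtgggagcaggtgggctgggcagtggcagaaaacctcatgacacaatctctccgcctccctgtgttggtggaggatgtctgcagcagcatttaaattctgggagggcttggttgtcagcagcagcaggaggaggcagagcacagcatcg
IBSP start, chr4:87799304-87799583, plus strand: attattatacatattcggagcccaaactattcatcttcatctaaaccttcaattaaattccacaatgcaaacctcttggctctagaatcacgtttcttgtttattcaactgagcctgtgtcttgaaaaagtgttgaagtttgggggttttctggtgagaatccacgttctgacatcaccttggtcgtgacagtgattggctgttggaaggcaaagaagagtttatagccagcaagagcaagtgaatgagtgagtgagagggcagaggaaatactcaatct
BGLAP start, chr1:156241934-156242213, plus strand: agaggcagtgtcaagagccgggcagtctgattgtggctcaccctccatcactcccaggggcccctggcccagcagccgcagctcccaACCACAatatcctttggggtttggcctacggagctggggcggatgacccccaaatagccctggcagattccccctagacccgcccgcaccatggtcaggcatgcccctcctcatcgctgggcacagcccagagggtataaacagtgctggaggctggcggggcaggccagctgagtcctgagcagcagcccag

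The first RUNX2 promoter holds 4 RUNX cores, all TGTGGT on the opposite strand (ACCACA as printed). Over 22130 promoters of protein-coding genes read in the same window of 280 bases, 17.7% held a RUNX core of either spelling and 8 held 4 or more. SPP1 and BGLAP held 1 core each, as did ALPL start 1 and starts 2 and 3 of BMP4. The 7 other promoters of these genes held none. The remaining motifs searched, on both strands, were TGANTCA (the AP-1 motif, in 5.93% of promoters), GGGCGG (the GC box, 55.3%), TATAAA (the TATA box, 9.27%) and CCAAT (34.0%). TGANTCA was found at RUNX2 start 1 and CDH2 start 2. TATAAA was found at ALPL start 2, CDH2 start 2, IBSP and BGLAP. GGGCGG was found at RUNX2 start 2, BMP4 starts 1 and 3, ALPL start 2, CDH2 start 1 and BGLAP. CCAAT was found at CDH2 starts 1 and 2 and at IBSP.

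Promoters rich in G and C were more often accessible in these lists. Several promoters of the bone genes, among them both of RUNX2, were not like most promoters of their GC class, while others were. RUNX2 start 1 is 42.1% G and C and had a peak over its promoter window in all 4 lists, where 16.5% of the 1379 promoters with 40% to 45% GC had one in all 4. RUNX2 start 2 is 77.1% GC with 38 CpG and had no peak over its window in any list, where 73.4% of the 2771 promoters with 75% GC or more had one in all 4 and 15.7% in none. The second start of ALPL, at 83.6% GC, was likewise without a peak. SPP1, at 46.8% GC, had a peak in every list, against 30.5% of 1603 promoters with 45% to 50% GC. Promoters of the 3 starts of BMP4 (57.5% to 68.9% GC), CDH2 start 1 (66.4%) and BGLAP (64.6%) had a peak in all 4 lists. In their GC classes, 58.3% to 77.0% of promoters had one in all 4. The promoters of IBSP (40.7%), CDH2 start 2 (41.4%) and ALPL starts 1 and 3 (60.0% and 50.4%) had none in any. In the class of IBSP and CDH2 start 2, 40% to 45% GC, 77.4% of promoters had none. In that of ALPL start 3, 50% to 55% GC, 47.1% had none and 47.5% had one in all 4. Of the 3555 promoters with 60% to 65% GC, the class of ALPL start 1, 25.3% had none. Thus 7 of the 13 windows were covered in every list and 6 in none, against 58.7% and 35.5% of all 22130.

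**Figure D1:**
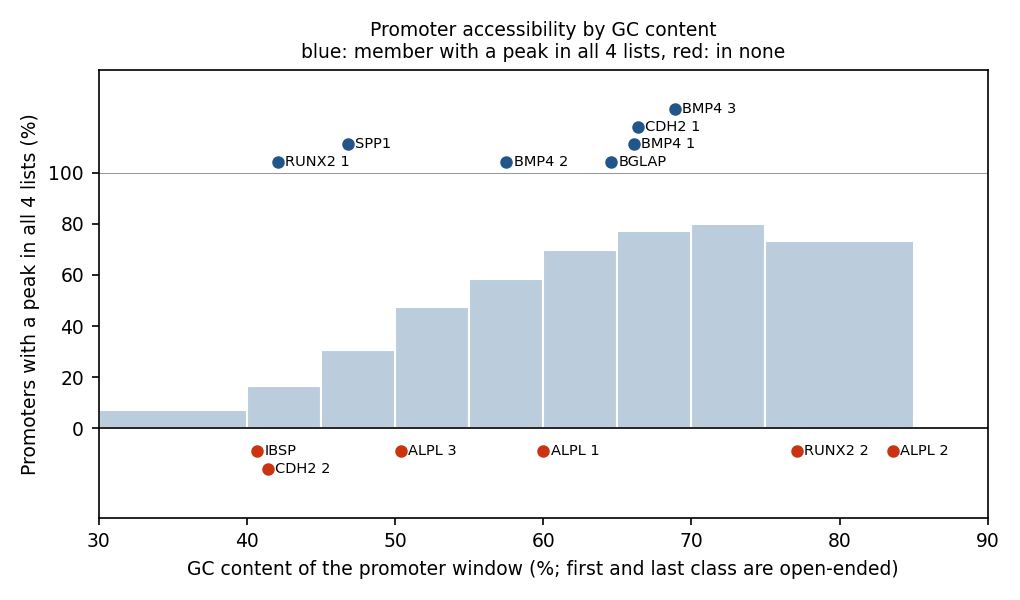
Share of 22130 promoters with a peak in all 4 lists (bars, vertical axis in %) by GC content of the 280-base window (horizontal axis in %), with the 13 member promoters as points at their own GC content, blue above the bars for a peak in all 4 lists and red below the axis for none; the height of the points carries no value. RUNX2 start 1 at 42.1% GC lies with the covered promoters, and RUNX2 start 2 at 77.1% with those lacking a peak.

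Within 1 kb of a start, or of an annotated end for SP7, BMP2 and CDH11, 6 of the 10 genes had a peak in all 4 lists (RUNX2, SP7, BMP4, CDH2, SPP1 and BGLAP). ALPL and IBSP had none in any list, and BMP2 and CDH11 had one only in the lists with H2O2. Over all 19974 protein-coding genes, 66.7% had such a peak in all 4 lists and 28.5% in none, so the share of open bone genes was near that of genes in general. The strongest were at BMP4, whose 5′-most start had a nearby peak at the 95.5 (siGl3), 96.0 (siOrc6), 95.9 (siGl3 with H2O2) and 95.8 (siOrc6 with H2O2) percentiles. The peak over that start itself ranked 90.9, 92.7, 33.6 and 94.7 in the same order.

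**Figure D2:**
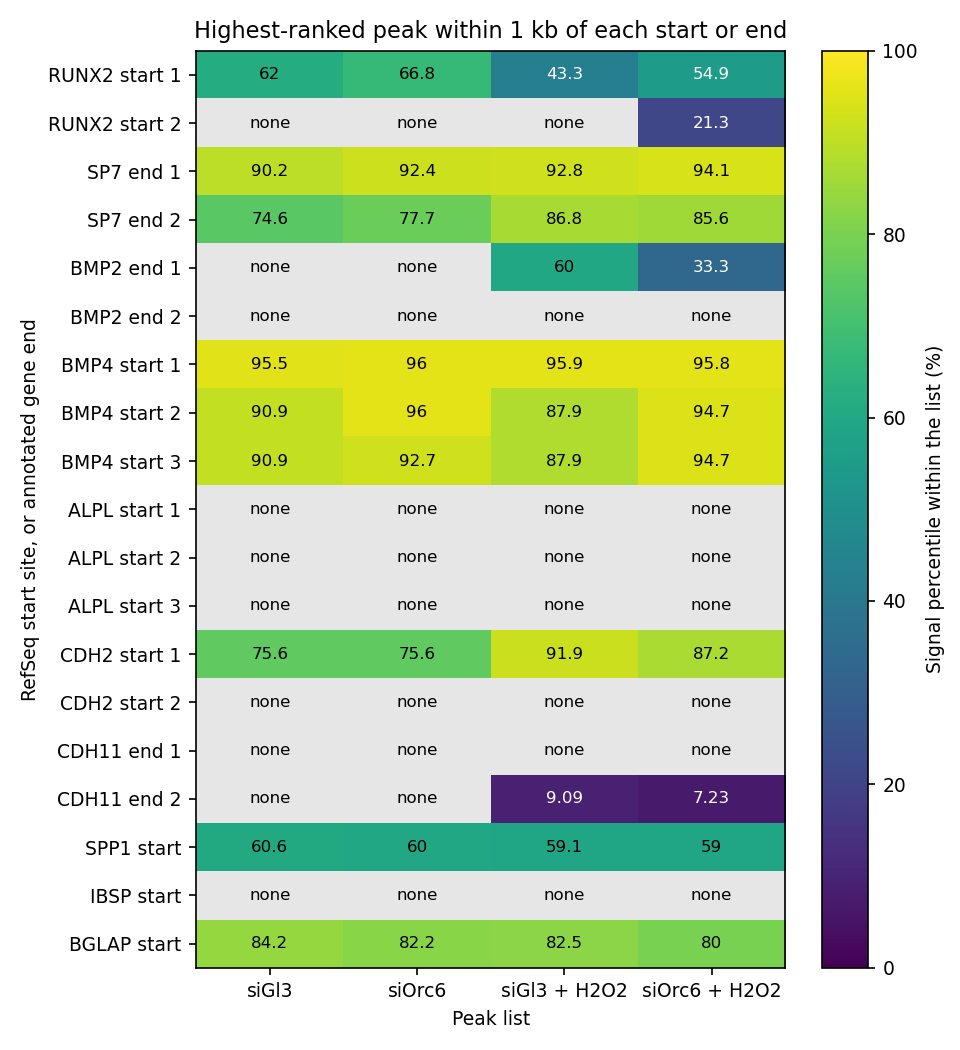
Signal percentile (colour and number, in %) of the highest-ranked peak within 1 kb of each RefSeq start or annotated gene end (rows) in each of the 4 peak lists (columns), with grey for no peak. BMP4 starts lie between 87.9 and 96.0 in every list, while ALPL and IBSP starts are grey throughout and the lower-coordinate end of BMP2 is filled only with H2O2.

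Of the transcription factors, RUNX2 (chromosome 6, 45328330 to 45551082) had 16 merged regions in its window, 14 of them inside the gene, and 8 with a peak in all 4 lists. Its density of 6.09 regions per 100 kb lay at the 48.5 percentile of protein-coding genes (median 6.34), so the high count goes with a long gene. The peak at start 1 ranked at the 62.0 percentile in siGl3, 66.8 in siOrc6, 43.3 in siGl3 with H2O2 and 54.9 in siOrc6 with H2O2. It covered the start itself in all but siGl3 with H2O2, where it ended 35 bp short. Higher ranks were reached inside the gene: a region of 979 bp that lies 23.2 kb past start 2 (45445523 to 45446501) ranked between 76.9 and 77.4 in the 4 lists. A region of 849 bp beyond the 3′ end (45566585 to 45567433), which lies in the antisense gene RUNX2-AS1, held the highest rank of the window in untreated siGl3, 82.0. Around start 2 the nearest untreated peaks lay 2.19 kb away in siGl3 and 14.6 kb away in siOrc6. With H2O2 a weak region beginning 1.0 kb past start 2 (45423275 to 45423902) was listed under both siRNAs, at percentiles 13.6 and 21.3, and in neither untreated list. Of its 8 regions not in every list, those of highest rank were at 45569306 to 45569864 beyond the gene (53.3 in siGl3, 21.4 in siOrc6, 40.8 in siGl3 with H2O2, none in the other), at 45520400 to 45520916 (37.2, 51.6, none and 17.7) and at 45419577 to 45420082, before start 2 (33.3, none, 28.2 and 17.1). No 2 of these 3 were missing from the same set of lists. SUPT3H overlaps the 5′ part of RUNX2, so the region at start 1 lies in both genes.

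SP7 (chromosome 12, 53326575 to 53344793) had 9 merged regions at 15.5 per 100 kb, the 86.8 percentile of genes, but its window also holds AAAS and the end of MYG1. The highest-ranked region (94.1 to 95.6 in the 4 lists) lay at the start of AAAS. The region at the higher-coordinate end of SP7 (53344707 to 53345698) ranked 74.6 in siGl3, 77.7 in siOrc6, 86.8 in siGl3 with H2O2 and 85.6 in siOrc6 with H2O2. Its peak reached across the annotated end only in the lists with H2O2, and began 22 or 23 bp outside it in the untreated ones. The region next to the other end (53324428 to 53326141) stood between 90.2 and 94.1. The 5 regions not in every list were weak, with percentiles from 0.141 to 21.0. Both of those inside the gene, at 53327548 to 53327946 and 53328063 to 53328266, were in 1 list each.

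The ligands had few regions. BMP4 (chromosome 14, 53949736 to 53956891) had 2, both wide (2431 and 2021 bp) and in every list, and the first of them (53952964 to 53955394) covered all 3 starts. In siGl3 with H2O2 this first region was split into separate peaks at 87.9, 48.3 and 33.6. BMP2 (chromosome 20, 6767686 to 6780246) also had 2. One of 1384 bp (6769402 to 6770785), 1.72 kb inside the gene from its lower-coordinate end, was in all 4 lists, at 81.2 in siGl3, 79.4 in siOrc6, 76.1 in siGl3 with H2O2 and 83.1 in siOrc6 with H2O2. The other (6767462 to 6768482) lay at that end and was listed only with H2O2. In siGl3 it was 1 peak of 936 bp at the 60.0 percentile, and in siOrc6 it was 2 peaks of 200 and 603 bp at 12.7 and 33.3, which left the annotated end itself uncovered. Per base of width, the 936 bp peak ranked at the 18.1 percentile of its list. The densities of both ligand windows, 4.24 and 3.81 per 100 kb, were below the median of genes.

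ALPL (chromosome 1, 21508984 to 21578410) was rich in regions away from its starts. It had 15 merged regions at 13.7 per 100 kb, the 82.3 percentile of genes, with 10 inside the gene and 8 in all 4 lists. None lay within 1 kb of any of its 3 starts. The region with the highest rank in untreated siGl3, 1832 bp wide and 16.1 kb past start 3 (21567378 to 21569209), ranked 92.6 in siGl3, 80.9 in siOrc6, 93.5 in siGl3 with H2O2 and 90.8 in siOrc6 with H2O2. In untreated siOrc6 it was listed as 2 peaks, and the values are those of the higher one. Regions at 21574113 to 21575486 inside the gene and at 21586420 to 21587793 beyond it stood between 86.6 and 92.9. Of the 7 regions not in every list, 3 had the highest ranks: 2 that were called changed, described below, and 1 beyond the gene (21594555 to 21594956) at 38.3, none, 28.3 and 30.3 in siGl3, siOrc6 and the same pair with H2O2. Thus the 3 wide regions at the 3′ part of the window were high in each list, while the 5′ starts had none.

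The cadherins are long genes with scattered regions. CDH2 (chromosome 18, 27932879 to 28177130, minus strand) had 11 merged regions at 3.87 per 100 kb and CDH11 (chromosome 16, 64943753 to 65123744) had 12 at 5.45. At CDH2 start 1 the top peak within 1 kb ranked 75.6 in siGl3, 75.6 in siOrc6, 91.9 in siGl3 with H2O2 and 87.2 in siOrc6 with H2O2. The untreated lists split this stretch into peaks of 625 to 806 bp, and the lists with H2O2 held 1 peak of 1622 or 1525 bp at that place. Per base of width, the top peaks were not higher with H2O2. They ranked 77.0 in siGl3, 70.6 in siOrc6, 70.0 in siGl3 with H2O2 and 63.3 in siOrc6 with H2O2. The highest rank of the CDH2 window in untreated siGl3, 85.8, was at 28114955 to 28115638 inside the gene. CDH11 had no strong region at either end. Its highest was 52.4 kb inside the higher-coordinate end (65070647 to 65071351), at 75.6, 72.0, 71.7 and 72.2 in siGl3, siOrc6 and the same pair with H2O2. A region of 631 bp that ends 1.23 kb inside that end (65121886 to 65122516) was in every list, at 8.6 in siGl3, 36.1 in siOrc6, 45.6 in siGl3 with H2O2 and 37.4 in siOrc6 with H2O2. Closer to the end, siGl3 with H2O2 had a peak at 9.09 over it and siOrc6 with H2O2 a separate one at 7.23, 0.551 kb away. These 2 weak peaks do not overlap. Besides them, the regions of CDH11 in 1 list only were at 19.6 (siGl3, 64952212 to 64952442), 10.7 (siOrc6 with H2O2, 65069821 to 65070126) and the called one described below.

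The 3 matrix genes differed. SPP1 (chromosome 4, 87975714 to 87983411) had a peak over its start at 60.6, 60.0, 59.1 and 59.0 in siGl3, siOrc6 and the same pair with H2O2, and 5 of its 6 regions were in every list. A stronger region lay 1.77 kb before the start (87973250 to 87973946), at 77.8, 81.7, 73.8 and 76.6. A start of LOC124900730 lies within 1 kb of that region. BGLAP (chromosome 1, 156242184 to 156243317) had a region of 2089 bp (156241053 to 156243141) at its start, with a peak over the start itself at 84.2, 82.2, 82.5 and 80.0 in siGl3, siOrc6 and the same pair with H2O2. These peaks lie mostly before the gene, and the region reaches further into it through a separate siGl3 peak (156242620 to 156243141) at 12.3. The highest rank of its window in untreated siGl3, 86.2, lay 7.91 kb before the start (156233154 to 156234278). All 6 regions of the window were in every list, but PMF1, PAQR6 and SMG5 also lie there, and the readthrough gene PMF1-BGLAP overlaps BGLAP. IBSP (chromosome 4, 87799554 to 87812435) had 2 regions. The one inside the gene, 6.49 kb past the start, was at 4.3 in siGl3, 13.5 in siOrc6 and 0.705 in siGl3 with H2O2, and was not listed in siOrc6 with H2O2. The other (87818965 to 87819999), 19.4 kb past the start and on the side of the neighbouring bone gene MEPE, was between 76.4 and 87.3 in the 4 lists.

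**Figure D3:**
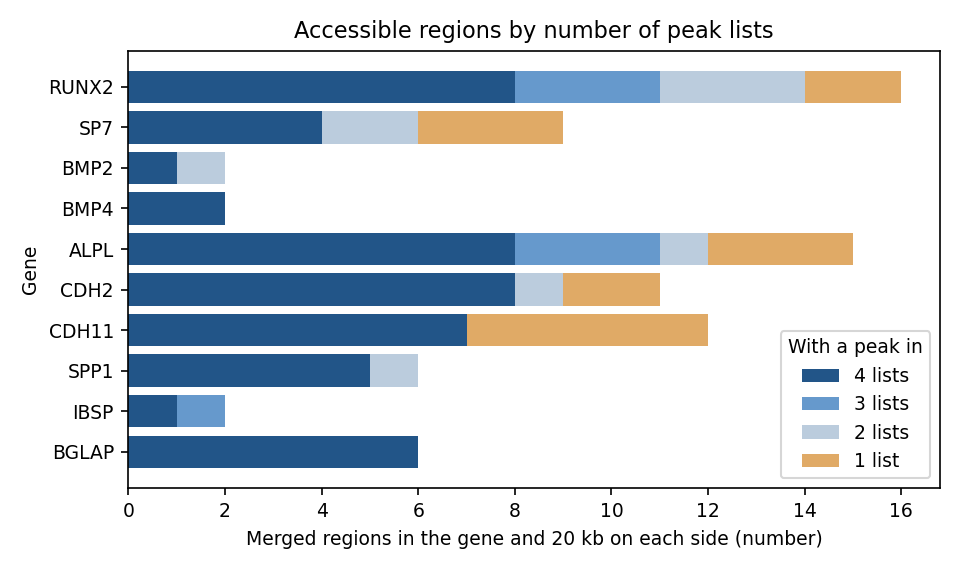
Number of merged regions (horizontal axis) in each gene and 20 kb on each side, divided by how many of the 4 peak lists have a peak there. RUNX2 has 16 regions and ALPL 15, BMP2, BMP4 and IBSP have 2 each, and every region of BMP4 and BGLAP is in all 4 lists.

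The first comparison asked which of these genes lay at regions altered by loss of Orc6. Without H2O2, CDH2, SPP1, ALPL and CDH11 had regions called higher in siOrc6, 8 in all, and RUNX2 had 1 called lower. With H2O2, ALPL had 1 called higher, and RUNX2 and CDH11 had 1 each called lower. SP7, BMP2, BMP4, IBSP and BGLAP had none in any of the 4 lists. Of all protein-coding genes, 24.8% had a region called higher and 17.8% one called lower without H2O2 within the gene or 20 kb of it, and 3.3% and 5.01% with H2O2. Against these shares stand 4, 1, 1 and 2 of the 10 bone genes. Long genes have more room for a region, and the shares were not matched on length.

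By region, 12 of 81 merged regions (14.8%) of the bone genes lay at a region called higher without H2O2, against 6.85% of all merged regions, and 1 (1.23%) at one called lower, against 4.74%. With H2O2 the counts were 1 of 81 called higher, against 0.945%, and 2 of 81 called lower, against 1.19%. The 12 merged regions belong to only 8 called regions, of which 1 at CDH2 accounts for 3 and 2 others for 2 each. CDH2 alone holds 3 of the 8 called regions. The authors' regions start 1 bp before the first peak they hold and join neighbouring peaks.

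CDH2 held the widest of these changes. A region of 3810 bp around start 1 (28175144 to 28178953), the promoter printed above, was called higher in siOrc6 without H2O2. In siGl3 it held 5 peaks at percentiles from 3.65 to 75.6 and in siOrc6 4 peaks from 53.0 to 75.6. The 2 peaks 3′ of the start (28175145 to 28176556) stood at 43.9 and 29.0 in siGl3 and at 65.8 and 53.0 in siOrc6. The peak over the start stood at 72.9 in siGl3 and 75.6 in siOrc6, and the next one 5′ of it at 75.6 and 71.8. The 2 other CDH2 regions called higher lay 61.5 kb past start 1 inside the gene (28114580 to 28115638), and beyond the 3′ end at the start of CDH2-AS1 (27921437 to 27922704). None of the 3 was called with H2O2.

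SPP1 had a called region over its start (87974944 to 87975832) and another 1.77 kb before it, the latter within 1 kb of a start of LOC124900730. The peak over the start ranked alike in siGl3 (60.6) and siOrc6 (60.0), and the called region also takes in a peak of 187 bp at 19.5 that was listed in siOrc6 and not in siGl3. With H2O2 this small upstream peak was again listed in siOrc6 alone, at 6.85, but no SPP1 region was called. The promoter printed above lies within the called region.

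At ALPL, a region 2.27 kb past start 2 (21511696 to 21512319) was called higher in siOrc6 without H2O2, and a shorter stretch of it (21512046 to 21512304) was called higher with H2O2. Its peak was 277 bp wide at 24.3 in siGl3 and 623 bp wide at 65.0 in siOrc6. With H2O2 no peak was listed in siGl3 and 1 of 258 bp at 28.0 in siOrc6. ALPL was thus the only one of the 10 genes with a region called higher under both treatments. The second region (21541900 to 21542265), 9.01 kb before start 3, had no peak in siGl3 and 1 at 45.7 in siOrc6. With H2O2 both lists had a peak there, at 8.51 and 21.8, and it was not called.

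RUNX2 had the opposite direction. A small region 19.7 kb past start 2 (45441960 to 45442206 without and 45441972 to 45442222 with H2O2) was called lower in siOrc6 under both treatments. It was listed in siGl3 at 8.77 and in siGl3 with H2O2 at 20.4, and in neither siOrc6 list. No called region lay near either RUNX2 start. At CDH11, a region 5.46 kb inside the higher-coordinate end (65117808 to 65118280) was called higher without H2O2, at 51.4 in siGl3 and 60.7 in siOrc6. Another, 2.21 kb outside that end (65125954 to 65126201), was called lower with H2O2 and rests on 1 peak at 8.12 in siGl3 with H2O2.

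**Figure D4:**
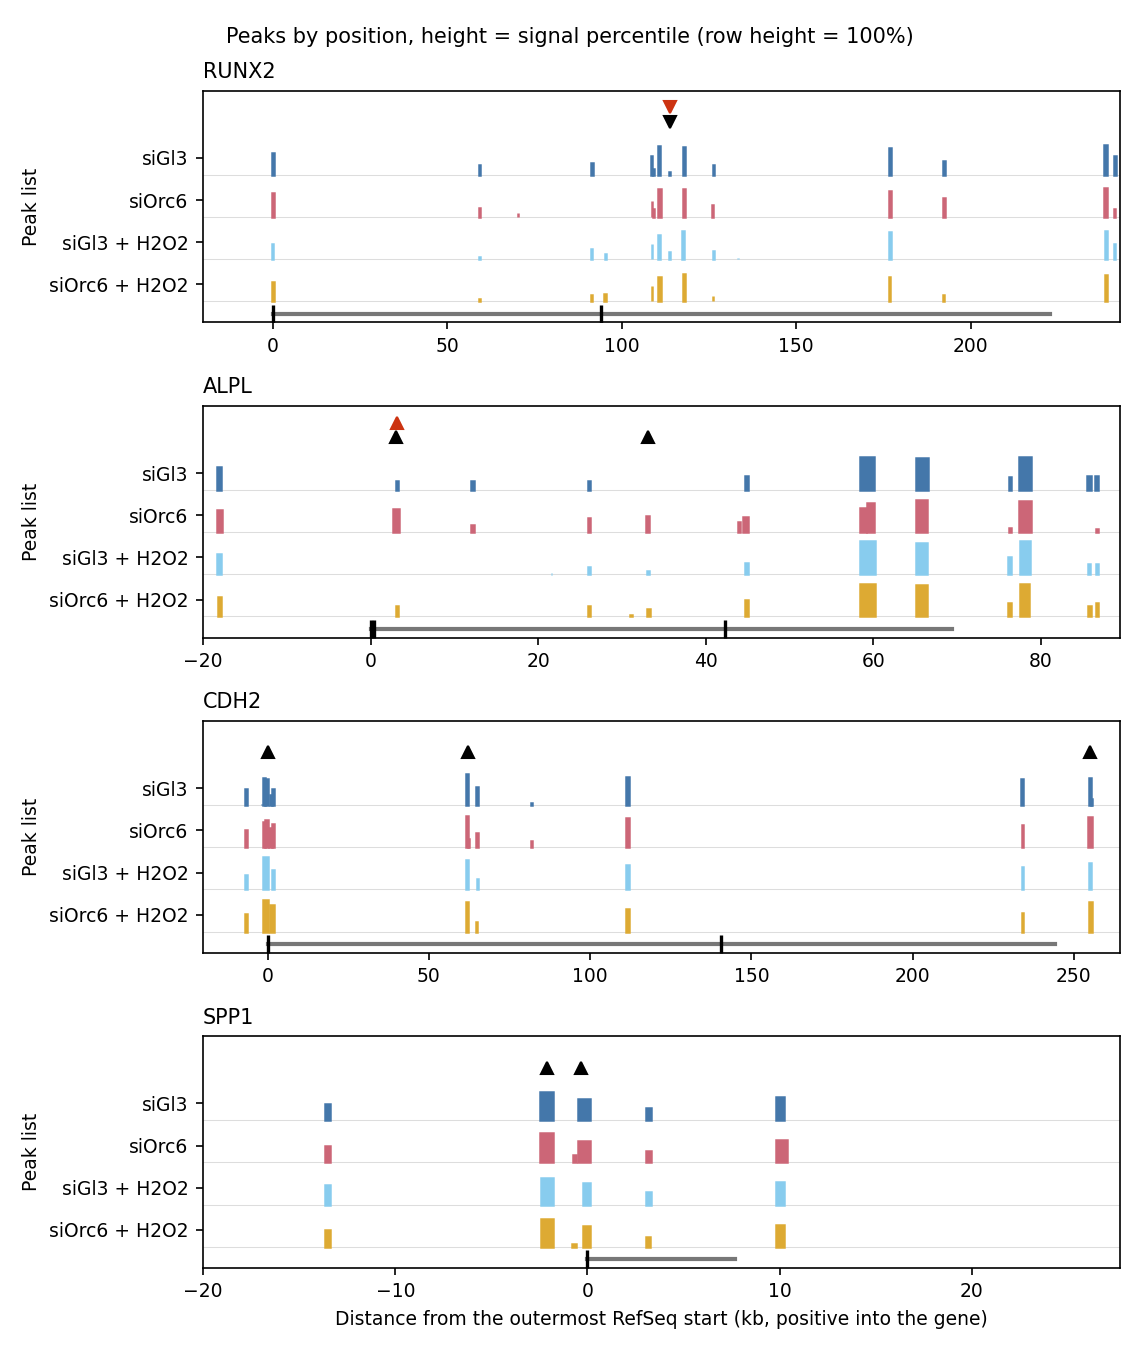
Peaks of the 4 lists (rows) over RUNX2, ALPL, CDH2 and SPP1 by distance from the 5′-most RefSeq start (horizontal axis in kb, positive into the gene), with bar height the signal percentile. Grey lines show the gene, black ticks its RefSeq starts, and triangles the regions called higher (up) or lower (down) in siOrc6 without H2O2 (black) and with H2O2 (red); ALPL has upward triangles under both treatments near its first starts, and RUNX2 downward ones under both.

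The effect of H2O2 could be read only from which regions each list holds. In siGl3, 9 of 64 regions of the bone genes (14.1%) were listed without H2O2 and not with it, against 17% of all merged regions, and 8 of 63 (12.7%) with H2O2 and not without it, against 8%. In siOrc6 the counts were 9 of 63 (14.3%), against 17%, and 10 of 64 (15.6%), against 7.03%. Whether these shares differ was not tested, and of the 10 regions listed only with H2O2 in siOrc6 the count was 0 when each list was limited to peaks above its median signal. In both siRNA conditions 3 regions were listed only without H2O2, in RUNX2 (45437269 to 45437456), ALPL (21520953 to 21521276) and CDH2 (28095127 to 28095389), with percentiles between 5.07 and 25.8. The 2 listed only with H2O2 under both siRNAs were those at the BMP2 end and beyond RUNX2 start 2 described above.

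At starts or annotated ends, a peak within 1 kb in both lists with H2O2 and in neither without it was seen at BMP2 and CDH11. It was seen in 137 of 19974 protein-coding genes (0.686%), and the opposite pattern in 72 (0.360%) and in none of the 10. Both genes, read at annotated ends, also had a region in all 4 lists further inside, 1.72 kb from the end at BMP2 and 1.23 kb at CDH11, which does not overlap the peaks listed only with H2O2. The pattern rests on the 1 kb limit: within 3 kb, 9 of the 10 genes had a peak in each of the 4 lists. With peaks above the median signal of their list the count was 6 in each. In siGl3 with H2O2 that count takes in BMP2 (60.0) and leaves out RUNX2 (43.3).

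**Figure D5:**
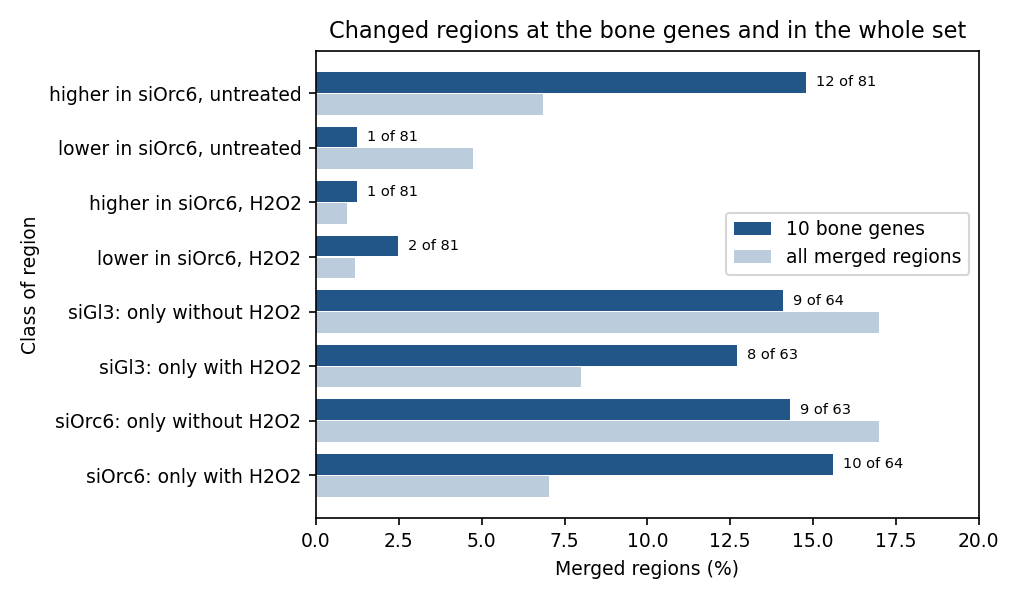
Share of merged regions (horizontal axis in %) of each class in the windows of the 10 bone genes (dark bars, with the count) and among all merged regions (light bars), where "only without H2O2" and "only with H2O2" compare the lists of 1 siRNA. The dark bar is longer for regions called higher in untreated siOrc6 (14.8% against 6.85%) and for regions listed only with H2O2 in siOrc6 (15.6% against 7.03%) and in siGl3 (12.7% against 8%). It is also longer for regions called higher (1.23% against 0.945%) and lower (2.47% against 1.19%) with H2O2, and shorter for the remaining classes.

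Across the 81 regions, 50 (61.7%) had a peak in all 4 lists and 15 (18.5%) in 1 list only, close to 62.1% and 15.8% of all merged regions. The 50 had a median top percentile of 74.2 and a median width of 690 bp, and the 31 others 19.5 and 300 bp. Over all merged regions the corresponding percentiles were 68.7 and 18.8. Regions of the bone genes that were not in every list were thus mostly weak ones, as in the whole set. Part of this contrast is by construction, since top percentile and width are taken over all lists with a peak in the region.

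Another 50 bone genes (factors, matrix proteins, BMP antagonists and receptors, SMADs and WNT receptors) were read in the same way. A peak within 1 kb of a start or end was in all 4 lists at 37 of 50 (74.0%, against 66.7% of all genes). It was in none at 12 (24.0%, against 28.5%). LRP5, a WNT co-receptor, had one only in siOrc6 with H2O2. Without H2O2, 14 of 50 (28.0%, against 24.8% of all genes) had a region called higher in siOrc6 and 11 (against 17.8%) one called lower. Among those with a higher region were the collagen genes COL1A1 and COL1A2, SPARC, the BMP antagonist NOG, GDF5, BMP6 and CDH4, with COL5A1, PHEX, SOST, ENPP1, SMAD5, FGFR1 and FGFR2. Those with a lower one were the RUNX partner CBFB, COL1A1, COL5A1, SPARC, ANKH, TNFRSF11B, BMP7, BMPR1A, SMAD6, and the neighbours OMD and OGN through 1 shared region. With H2O2, 1 of 50 (2.0%, against 3.3% of all genes) had a region called higher, CDH4. At least 1 region called lower was found at 3 of 50 (6.0%, against 5.01%), COL1A1, ANKH and SMAD6.

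Markers of other cell types give the scale for the label. A start or end peak in all 4 lists was found at 6 of the 10 bone markers, 4 of 10 epithelial, 4 of 10 blood, 3 of 10 endothelial, 3 of 10 muscle, 5 of 10 cartilage and fat, and 9 of 10 neuronal markers. Of all protein-coding genes, 66.7% had one. The bone count lay between those of the other types, so accessibility at starts or ends did not set the bone genes apart in these lists. The pattern of BMP2 and CDH11, a start or end peak only with H2O2 under both siRNAs, was also that of CD79A and HBA1 (blood), ERG (endothelial) and DES (muscle). Among the markers, CDH5 had such a peak only in siOrc6 with H2O2 and MYOG only in untreated siGl3.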

How the data were processed

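Peaks are the authors' own: 1 deposited narrowPeak list per condition, whose name carries both library numbers. The submitters' processing notes name build hg38 and, among the tools, Genrich, edgeR, Bowtie2, bcl2fastq 2.20, deepTools, SAMtools and Picard. Their roles, thresholds and any shift of read positions are not given in the sources used here. The deposited lists hold a peak signal that is never negative, and beside it the deposited significance of each peak as −log10 of p and of q. Signal was ranked only within its list. The deposited lists of changed regions hold positions and no other value.

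Genes and promoters came from RefSeq tables of GRCh38.p14. The deposited files are on hg38, the same assembly. All 10 genes and the 50 further bone genes were found by symbol; the promoter table held 7 of the 10. Peaks on other sequences (147 to 168 per list) were left out. An overlap needs at least 1 bp, and coordinates are 1-based. No exon annotation was used. The members and lists were chosen with earlier results of these data known. Named were all 10 genes and, of other lists, genes with a changed region or with a start peak in some lists only; of the other cell types' markers only the latter are named. Window counts and merging were tested on simulated peaks. The scripts ran under Python 3.11.15 with pandas 2.3.3, numpy 2.4.6 and matplotlib 3.10.9.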

Additional observations from a re-analysis of the deposited data

How the results depend on the processing

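Of 94 counts recomputed with another flank, a stricter set of peaks or another rule of overlap or joining, 66 stayed within 1.5 times the reported count. With the gene body alone, peaks in the windows fell to 41 (siGl3), 43 (siOrc6), 42 (siGl3 with H2O2) and 40 (siOrc6 with H2O2), from 70, 66, 66 and 66. Regions and genes called lower in siOrc6 with H2O2 were then 1 and 1, regions in all 4 lists 31, and regions listed only with H2O2 in siOrc6 6. With 50 kb flanks the peaks numbered 109, 105, 103 and 101, merged regions 122, those in all 4 lists 81, regions called higher in siOrc6 16 without and 3 with H2O2, and genes with the latter 2. With peaks above the median signal of their list, peaks numbered 36, 40, 33 and 32, merged regions 42 and those in all 4 lists 30. Regions listed only without H2O2 were then 5 in siGl3 and 5 in siOrc6, and those listed only with it 3 and 0. Joining peaks at most 500 bp apart left 6 listed only with H2O2 in siOrc6. With the other flanks and with the stricter peaks, fewer or more peaks enter each count by construction. Joining at 500 bp takes in, also by construction, regions close to one listed in untreated siOrc6. These were in SP7 (53345852 to 53346192), ALPL (21594555 to 21594956) and CDH11 (65069821 to 65070126 and 65122894 to 65123193). Ranked per base of width, an alternative chosen after seeing the data, the leading peak in untreated siGl3 was the same one at 6 of 10 genes. No paired analysis was possible because each condition has 1 list and no value per library, and leaving out a library could not be done for the same reason.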
